A study of Mus musculus with 126 samples.

Results

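The 4 genes Zscan12, Zkscan3, Pgbd1 and Zfp322a of mouse chromosome 13 were followed through 126 primary prostate tumors. Their members were taken as every probe set of the array that the platform annotation assigns to 1 of these 4 symbols, which gave 5 of the 41345 probe sets: 1 each for Zscan12, Zkscan3 and Pgbd1, and 2 for Zfp322a. No probe set with several symbols named any of the 4 genes, and all 5 members passed the filter that kept 23507 named probe sets. Tumors came from transgene-positive F2 males of an intercross between TRAMP mice on C57BL/6J and the NOD/ShiLtJ strain, 1 array per male. TRAMP males carry SV40 T antigen under the probasin promoter, so the transgene is driven in prostate epithelium and every mouse studied here carried it. The F1 parents were the offspring of TRAMP females and NOD males, and transgene-positive F1 females were crossed with transgene-negative F1 males. Tumors were taken at the age limit of the study or at a humane endpoint, from 87 mice labelled metastasis and 39 labelled no metastasis. The labels do not name the site and were read here as distant metastasis. The group labelled no metastasis includes mice with lymph node metastasis. Primary tumor burden was recorded for all 126 mice, and lymph node metastasis burden was available for 41. Pgbd1 and Zfp322a were chosen by the study as candidates on these same tumors, so their relations with its traits are not independent evidence.

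The SCAN domain is a protein interaction module that lets zinc finger proteins pair with one another, and in mammals it often stands beside a KRAB domain, which recruits a corepressor complex to silence genes and transposable elements. Such genes lie in clusters that arose by tandem duplication, and the chromosome 13 cluster in mouse sits among histone and butyrophilin genes. Zscan12 encodes a SCAN domain zinc finger protein. Zkscan3 joins SCAN and KRAB domains with zinc fingers and is known in human cells as a repressor of autophagy and lysosome genes. Pgbd1 encodes a protein derived from a piggyBac transposase that also carries a SCAN domain. Zfp322a is the mouse counterpart of human ZNF322, a zinc finger transcription factor that has been studied in human lung cancer cells.

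RefSeq promoter windows on GRCm38.p6 were available for 3 of the 4 genes, 4 windows in all, and none was given for Zkscan3. The 250 bases before the start of each are shown for Zscan12, the first of both Pgbd1 starts and Zfp322a. They are shown because the levels of these genes are set against each other in the comparisons that follow. Capitals mark matches to 5 motifs searched on both strands. The motifs were CCGGAAG (ETS), GGGCGG (GC box), CCAAT (the box of that name), TGACGTCA (CRE) and CACGTG (E box).
Zscan12, chr13:21362570-21362819, plus strand: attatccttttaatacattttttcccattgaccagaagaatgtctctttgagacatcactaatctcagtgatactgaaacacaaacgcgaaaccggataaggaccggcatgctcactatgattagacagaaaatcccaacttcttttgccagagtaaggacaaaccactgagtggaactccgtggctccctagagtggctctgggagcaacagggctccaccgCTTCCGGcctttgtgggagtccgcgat
Pgbd1, chr13:21441054-21441303, minus strand: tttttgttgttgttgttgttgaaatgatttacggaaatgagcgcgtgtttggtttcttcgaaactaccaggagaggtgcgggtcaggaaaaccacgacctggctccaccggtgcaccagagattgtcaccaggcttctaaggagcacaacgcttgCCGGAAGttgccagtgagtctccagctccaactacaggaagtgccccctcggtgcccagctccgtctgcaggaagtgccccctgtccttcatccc
Zfp322a, chr13:23369209-23369458, minus strand: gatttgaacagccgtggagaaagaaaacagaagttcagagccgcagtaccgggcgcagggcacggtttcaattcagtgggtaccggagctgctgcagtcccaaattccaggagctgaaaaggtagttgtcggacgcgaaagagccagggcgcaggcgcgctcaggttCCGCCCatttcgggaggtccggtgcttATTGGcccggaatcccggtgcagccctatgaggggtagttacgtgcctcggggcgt
Zscan12 held the ETS letters in reverse complement, from base 27 to base 21 before the start, and Pgbd1 held them as printed, from base 95 to base 89. These letters were present in 6.91% of the 32851 windows of this length. The Zfp322a window held none of them, but a GC box in reverse complement from base 83 to base 78 (32.7% of all windows) and a CCAAT box in reverse complement from base 56 to base 52 (33.8%). The other Pgbd1 window had no match. CRE and E box letters, in 1.55% and 6.02% of all windows, were in none of the 4. GC content was 47.2% for Zscan12, 54.4% for Pgbd1 and 59.6% for Zfp322a, with a median of 52.4% over all windows. A match describes letters only and is not evidence of a bound site.

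Expression was given as log2 RMA values, and the median of an array lay between 5.84 and 6.05. The array of mouse N1202, no metastasis replicate 26, correlated least with the others (mean r 0.88, against 0.915 for the next lowest and a median of 0.97). N1202 had a tumor of 0.4 g, a seminal vesicle marker mean of 9.63 (median of the other arrays 4.93) and a smooth muscle mean of 10.9 (median 7.19). Other arrays reached higher values for both, up to 11.5 and 11.1, so these markers alone do not set N1202 apart. It held the highest Zscan12 value and the lowest Zkscan3 and Pgbd1 values of all 126 arrays, and for this reason many of the values are also given without it. As a check of the labelled tissue, the mean of 11 neuroendocrine genes had a median of 9.40 over the other arrays, that of 6 mitosis genes 11.1 and that of 11 epithelial genes 6.23, with single tumors up to 10.5 for the last. In bulk tumors, fewer cells of a type and less RNA per cell cannot be told apart.

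The probe sets lay at different levels on this scale, which does not compare genes with one another because probes differ. Zscan12 had a level of 5.38 ± 0.24 (SD, n = 126), from 4.77 to 6.34 with a median of 5.40. The highest of these was N1202, and the other 125 tumors ended at 6.04. Zkscan3 had a level of 8.85 ± 0.34, from 7.01 in N1202 to 9.53, and the next lowest tumor had 7.57. Pgbd1 had a level of 6.46 ± 0.49, the largest SD of the members, from 5.15 in N1202 to 7.62. The main Zfp322a probe set, that with the higher mean, had a level of 7.71 ± 0.30, from 7.00 to 8.45. The second Zfp322a probe set had 3.64 ± 0.17, from 3.27 to 4.27, and its mean stood at the 13th percentile of all probe sets. This was close to the filter, which was set at a mean of 3.42.

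All 5 members had positive correlations with primary tumor burden, and 3 of them passed the test. In the limma fit over 23507 probe sets, 36.7% of all probe sets passed (Benjamini-Hochberg adjusted p under 0.05) and 20.3% passed in the higher direction, so 3 of 5 members stands on a background in which a call with burden is common. Pgbd1 rose with burden. Its level ran from 5.15 to 7.37 with a median of 5.94 in the 15 tumors under 1 g, from 5.24 to 7.62 with a median of 6.49 in the 40 tumors from 1 g to under 4 g, from 5.40 to 7.16 with a median of 6.52 in the 42 tumors from 4 g to under 7 g, and from 5.67 to 7.23 with a median of 6.61 in the 29 tumors of 7 g and over. The ranges overlapped throughout, and the step in the median lay between the tumors under 1 g and all others. The slope was 0.0371 log2 units per g (limma adjusted p = 0.0318), with r = 0.225 (two-sided permutation test of 100000 resamples, p = 0.0111), rho = 0.221 (p = 0.0127) and r = 0.249 once the 2 mice at the extremes of burden were left out. Leaving out N1202, the lowest Pgbd1 array, ended the call (r = 0.203, adjusted p = 0.0597).

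Zscan12 also rose with burden. Its medians in the same 4 classes of burden were 5.30, 5.35, 5.47 and 5.41, so that the highest stood in the class from 4 g to under 7 g. The slope was 0.0174 per g (limma adjusted p = 0.0405), r was 0.218 (permutation p = 0.0134) and rho 0.24 (p = 0.00676). Without N1202 r was 0.284 (adjusted p = 0.00663). Leaving out the 2 mice at the extremes of burden ended the call (r = 0.197, adjusted p = 0.0715).

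The second Zfp322a probe set had the highest correlation of the 5. Its medians were 3.59, 3.62, 3.61 and 3.70 in the order of burden, with a slope of 0.0166 per g (limma adjusted p = 0.00456), r = 0.295 (permutation p = 0.00081) and rho = 0.268 (p = 0.00231). The main probe set of the same gene had medians of 7.54, 7.77, 7.80 and 7.75 and did not pass (r = 0.159, permutation p = 0.0741, limma adjusted p = 0.151). Zkscan3 did not pass either, with medians of 8.77, 8.83, 8.96 and 8.89 (r = 0.14, permutation p = 0.117, limma adjusted p = 0.213, and r = 0.0917 without N1202). Both passed when burden was taken on a log2 scale (limma adjusted p = 0.0143 for the main Zfp322a set and 0.0475 for Zkscan3). On that scale all 5 members were called and the r of Pgbd1 was 0.347. The share of all probe sets called on the log2 scale is not given here, and in g it was already 36.7%. The 5 calls are therefore not read as particular to the members.

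**Figure D1:**
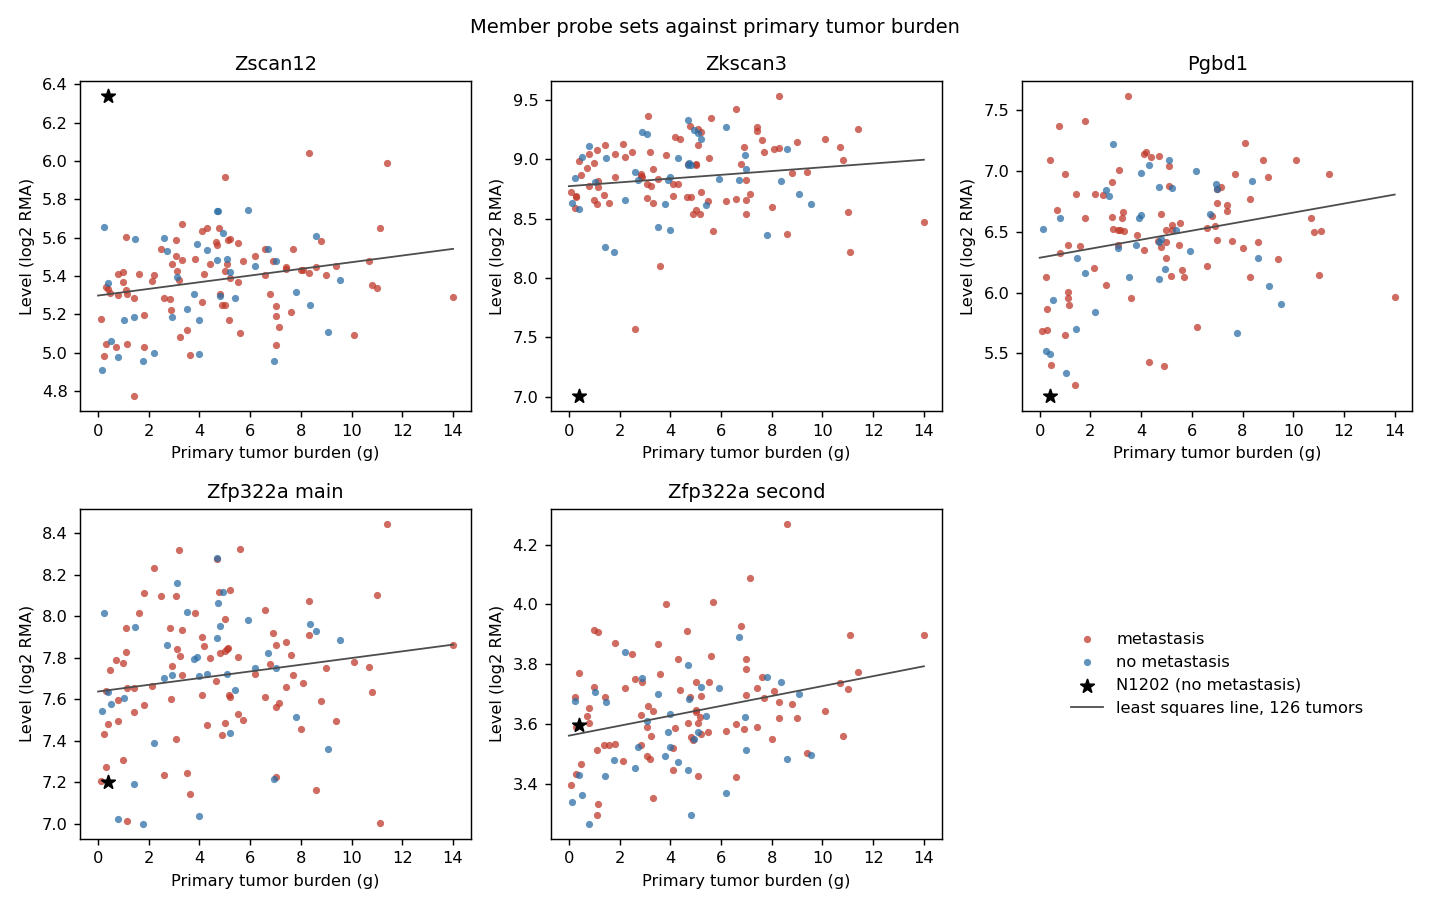
Level of each member probe set (log2 RMA) against primary tumor burden (g) in 126 tumors, with mice with metastasis in red, mice with no metastasis in blue, N1202 as a star and the least squares line over all tumors. All 5 lines slope upward, with r from 0.14 for Zkscan3 to 0.295 for the second Zfp322a probe set, and the spread around each line is wide.

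Markers of tumor composition moved with burden in the same tumors. All 11 epithelial genes (Cdh1, the adhesion molecule of epithelial junctions, with r = −0.545, and Krt18, a luminal keratin, with r = −0.534), all 6 smooth muscle genes and 5 of 6 fibroblast genes fell with burden. All 6 mitosis genes and 8 of 11 neuroendocrine genes rose, among them Chgb, a granule protein (r = 0.381). The median r of all probe sets tested was 0.0489, that of the epithelial list −0.51 and that of the mitosis list 0.384. With the epithelial mean as a covariate no member was called, partial r was −0.0855 for Pgbd1 and −0.0235 for the main Zfp322a probe set, and 54 of all probe sets were called. Without the 15 tumors under 1 g no member was called either (r = 0.114 for Pgbd1, 0.196 for Zscan12 and 0.216 for the second Zfp322a set), and 1937 of all probe sets were.

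Each mouse carries a tag number in its label, and no processing batch is labelled, so relations were also computed within ranges of the tag number, which is not a stated batch. Within tags under 500, 500 to under 800, 800 to under 1000, and 1000 and over (18, 21, 39 and 48 mice), r with burden was 0.117, 0.448, 0.00827 and 0.434 for Pgbd1. For Zscan12 it was 0.514, 0.222, 0.328 and 0.091. For Zkscan3 it was −0.119, 0.3, 0.0545 and 0.37. It was 0.188, 0.349, 0.216 and 0.0982 for the main Zfp322a set, and 0.508, 0.184, 0.186 and 0.199 for the second. No difference between the ranges passed for a member (limma F test of the interaction, unadjusted p from 0.0988 to 0.846, adjusted p from 0.842), and 0 probe sets were called at all, with 6.02% under an unadjusted p of 0.05.

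Distant metastasis was compared between 87 mice with metastasis and 39 mice with no metastasis. No member was called, and neither was any of the 23507 probe sets (0% called by limma, with 874 probe sets, 3.72%, under an unadjusted p of 0.05, and 0 called by Student's t-test of the methods with 882 under an unadjusted p of 0.05). Pgbd1 levels ran from 5.24 to 7.62 with a median of 6.51 in mice with metastasis, and from 5.15 to 7.22 with a median of 6.42 in mice with no metastasis. The means were 6.49 ± 0.479 and 6.38 ± 0.525 (SD), a difference of 0.12 with a 95% interval from −0.07 to 0.30 (limma unadjusted p = 0.218, adjusted p = 0.985). Zkscan3 averaged 8.87 ± 0.306 in mice with metastasis and 8.80 ± 0.41 in mice with no metastasis, a difference of 0.06 (interval from −0.07 to 0.19). The difference was 0.01 without N1202, which belongs to the mice with no metastasis.

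The second Zfp322a probe set had the lowest unadjusted p of the members. It ran from 3.29 to 4.27 with a median of 3.64 in mice with metastasis, and from 3.27 to 3.89 with a median of 3.57 in mice with no metastasis, so the groups overlapped. The difference was 0.09 (interval from 0.02 to 0.15, limma unadjusted p = 0.00841, adjusted p = 0.985), rank 113 of 23507 by p. Within the 4 tag ranges it was 0.30, 0.08, 0.08 and 0.01. The main Zfp322a probe set differed by 0.03 (interval from −0.09 to 0.15, and 0.02 without N1202) and Zscan12 by 0.00 (interval from −0.09 to 0.10, and 0.03 without N1202), with means in mice with metastasis and with no metastasis of 7.72 ± 0.297 and 7.69 ± 0.326 for the first and 5.38 ± 0.216 and 5.38 ± 0.289 for the other. The upper bound of the interval was highest for Pgbd1, at 0.30 log2 units.

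**Figure D2:**
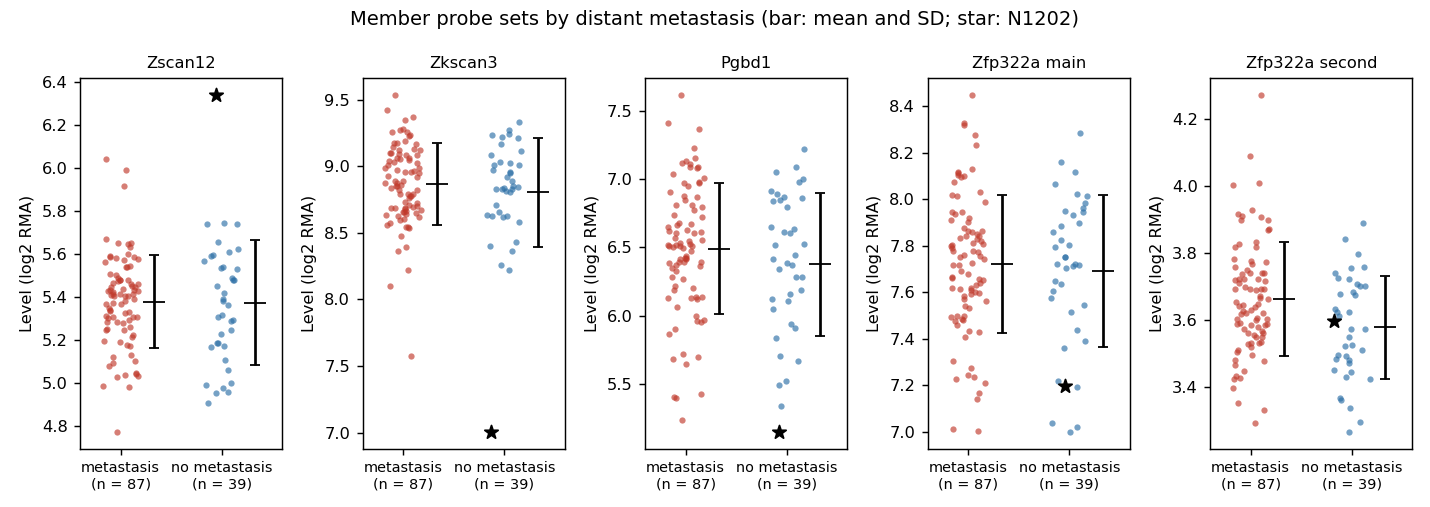
Level of each member probe set (log2 RMA) in mice with metastasis (n = 87, red, left) and mice with no metastasis (n = 39, blue, right), 1 point per tumor, with mean and SD as bars and N1202 as a star. The groups overlap for all 5 probe sets, and the means differ by 0.12 or less.

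No difference in the slope on burden between the groups of mice passed the test. For Pgbd1 the slope was 0.0264 per g in mice with metastasis and 0.0655 per g in mice with no metastasis (difference −0.0391 ± 0.0337 SE, limma unadjusted p = 0.248, adjusted p = 0.608). For Zscan12 it was 0.0208 and 0.00694 per g in the same order (unadjusted p = 0.406). The other members had unadjusted p from 0.228 to 0.998. No probe set was called in this interaction by limma, and 13.5% had an unadjusted p under 0.05.

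Lymph node metastasis burden was available here for 41 mice, all 39 with a tag under 800 and 2 with a tag from 800 to under 1000. The paper mapped this trait in the F2 cross and states no such limit. No member and no other probe set was called (0% by limma, with 2097 probe sets, 8.92%, under an unadjusted p of 0.05, and 0 by the Pearson test of the methods with 2059 under that level). Zkscan3 gave the lowest p of the members. Its level in these mice ran from 7.57 to 9.35 with a median of 8.81, and its slope was −0.38 log2 units per g of lymph node metastasis (r = −0.398, permutation p = 0.0113, limma adjusted p = 0.472). The relation was weaker without 2 mice. Those with the lymph node burden farthest from the median had Zkscan3 levels of 7.57 and 8.62, against a range from 8.10 to 9.35 in the other 39, and without them r was −0.11. Only the first of them, N369, lay outside that range. Ranks gave rho = −0.215 (permutation p = 0.174). Within tags under 500, which include N369, r was −0.696, and within tags from 500 to under 800 it was −0.0216.

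The other members had r of −0.151 for Pgbd1 (permutation p = 0.347), 0.137 for the main Zfp322a probe set (p = 0.396), 0.0885 for the second (p = 0.576) and 0.0721 for Zscan12 (p = 0.653). Lymph node metastasis was present in 37 of these mice and absent in 4. Pgbd1 ran from 5.43 to 7.41 with a median of 6.39 where it was present, and was 5.34, 5.40, 5.90 and 6.89 where it was absent. In that order these 4 mice were N614, N275, N586 and N574, and the first and last were labelled no metastasis. The other mice with that label and a lymph node value carried lymph node metastasis. The means of 6.36 ± 0.494 and 5.88 ± 0.717 (SD) differed by 0.475, which did not pass (exact two-sided permutation test, p = 0.0874). Of the 4 mice, N574 alone stood apart in the epithelial and neuroendocrine means, and among the others the epithelial mean did not fall as Pgbd1 rose. In the order of Pgbd1 given for the 4 mice, the epithelial mean was 10.3, 10.4, 10.5 and 5.81, against a range from 5.94 to 10.5 with a median of 6.33 in the mice with lymph node metastasis. The neuroendocrine mean was 7.17, 6.36, 6.72 and 9.44 in the same 4 mice, against a range from 6.23 to 9.73 with a median of 9.36. The part of tumor composition in this difference was not tested. For Zscan12 the difference was 0.19 (exact p = 0.156), for the second Zfp322a set 0.16 (exact p = 0.115), for the main set 0.22 (exact p = 0.228) and for Zkscan3 −0.12 (exact p = 0.532). No mouse with lymph node metastasis had Pgbd1 or Zscan12 below the lowest of the 4 without, against 1 for each Zfp322a set and 18 for Zkscan3. Above the highest of the 4 lay 6 of the 37 for Pgbd1 and 22 for Zscan12. That count was 16 for the main Zfp322a set, 18 for the second and 11 for Zkscan3. The groups overlapped for every member, and no exact test passed.

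The mutual correlation of the members was computed for 10 pairs over 126 tumors. In limma fits with 1 member as the regressor, 4 pairs were called. The share of all other probe sets called with the same regressor was 42.4% for Zkscan3 (21% higher), 55.9% for Pgbd1 (28.4%), 39.5% for the main Zfp322a set (19.6%), 25.2% for the second (13.6%) and 7.77% for Zscan12 (3.72%), so a call beside Zscan12 stands on a lower background than a call beside Pgbd1. Zkscan3 and the main Zfp322a set rose and fell together most closely (r = 0.556, rho = 0.515, limma adjusted p = 9.14e-10, with Zkscan3 as the regressor). Their r was 0.604 in mice with metastasis and 0.485 in mice with no metastasis, and lay between 0.435 and 0.611 in the 4 tag ranges. It was 0.551 without the 2 tumors of most extreme Zkscan3 (adjusted p = 6.3e-09), and partial r was 0.517 given the epithelial mean and 0.546 given burden.

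Zkscan3 and Pgbd1, which are next to each other among the genes measured on the chromosome, had r = 0.508 and rho = 0.54 (limma adjusted p = 3.45e-08), with 0.445 in mice with metastasis and 0.601 in mice with no metastasis, and from 0.35 to 0.586 in the tag ranges. Zscan12 and the main Zfp322a set had r = 0.411 and rho = 0.451 (adjusted p = 0.001), and 0.504 without N1202. Permutation of each of these 3 pairs gave p = 1e-05, the smallest value that 100000 resamples can give. Pgbd1 and the main Zfp322a set had a lower correlation, r = 0.243 and rho = 0.207 (permutation p = 0.00586, adjusted p = 0.0125), and it ended with the epithelial mean as a covariate (partial r = 0.0746, adjusted p = 0.533). It was −0.121 in the 18 mice with tags under 500.

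The relation between the direct neighbours Zscan12 and Zkscan3 depended strongly on 1 array and also differed between tag ranges. Over all tumors r was 0.0941 (permutation p = 0.289, limma adjusted p = 0.519) while rho was 0.278 (p = 0.0018). N1202 had a Zscan12 level of 6.34 and a Zkscan3 level of 7.01, the highest and the lowest of their kind, 4.31 SD above and 6.19 SD below the mean of the other arrays. Without it r was 0.329 (limma adjusted p = 0.00226). Also without it, r was 0.00967 in tags under 500, 0.216 in 500 to under 800, 0.53 in 800 to under 1000 and 0.49 in 1000 and over. Zscan12 and Pgbd1, in turn, had r = 0.0545 over all tumors and 0.154 without N1202 (adjusted p = 0.185).

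**Figure D3:**
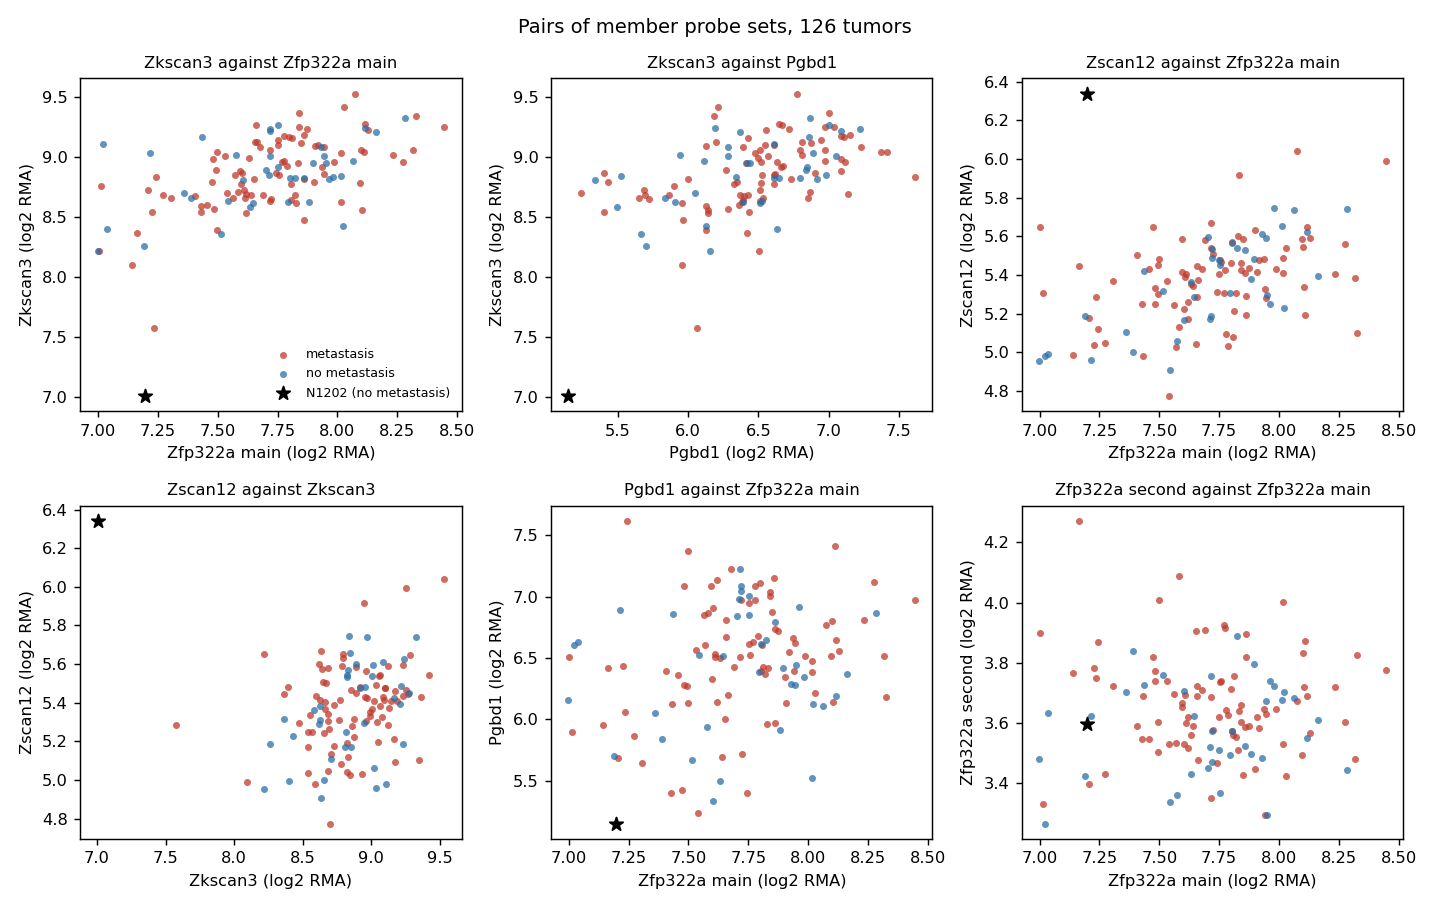
Levels of 6 pairs of member probe sets (log2 RMA on both axes) in 126 tumors, with mice with metastasis in red, mice with no metastasis in blue and N1202 as a star. Zkscan3 follows the main Zfp322a set (r = 0.556) and Pgbd1 (r = 0.508), N1202 stands alone in the plot of Zscan12 against Zkscan3, and the Zfp322a sets do not follow each other (r = −0.0129).

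The probe sets of Zfp322a did not follow each other. Their r was −0.0129 and rho −0.0186 (permutation p = 0.886 and 0.836), and r was −0.0898 in mice with metastasis and 0.125 in mice with no metastasis. The second set was not called with any other member, with r from −0.109 for Zkscan3 to 0.12 for Pgbd1. Probe set identifiers of this array run in blocks along each strand. Of the 40 nearest identifiers on chromosome 13 whose genes have a promoter window, 38 belong to genes on the minus strand for the main Zfp322a set, and Zfp322a itself is a minus strand gene. For the second set 39 of 40 belong to genes on the plus strand. Zkscan4 and Zfp184, both plus strand genes of the same cluster, likewise have a pair of probe sets each, 1 in a block with 38 plus strand genes of 40 and 1 in a block with 38 minus strand genes. Which strand a probe set reads was not stated in the sources, so whether the second set measures Zfp322a transcript was not tested. The call of Zfp322a with burden in g came from that set alone.

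The genes whose levels were most like those of each member differed among members. For the main Zfp322a set the highest r over 126 tumors belonged to Tdp2, a DNA repair phosphodiesterase gene of chromosome 13 (r = 0.738), followed by Zfp420 (0.662), Zc3h15 (0.655), Ahsa2 (0.652) and Gm11335 (0.651), the last also on chromosome 13. The lowest were Per1, a component of the circadian clock (r = −0.597), Ier3 (−0.581) and Plec (−0.568). For Zkscan3 the highest were Tasor2 (0.734) and Zfp934 (0.725), both on chromosome 13, then Hacd3 (0.724), the splicing factor gene Srsf10 (0.718) and Gemin6 (0.718), and the lowest were Per1 (−0.74), Drap1 (−0.676) and Snord22 (−0.637). Per1 was the lowest for both. Several places in the Zkscan3 list changed when N1202 was left out, although Tasor2 still had r = 0.65. Without it the highest were Zfp934 (0.711), Senp8 (0.667), Zfp808 (0.666), Zfp113 (0.665) and Bbs5 (0.658), and the lowest Per1 (−0.691), Klf9 (−0.639) and Snord22 (−0.623).

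Pgbd1 was most like Zfp454 (r = 0.733), 4933404O12Rik (0.725), Mcm8, a helicase of DNA recombination repair (0.724), Dck, the deoxycytidine kinase (0.722), and Zfp940 (0.721), none of them on chromosome 13. Its lowest were Slc17a9 (−0.653), Mgst1 (−0.652) and Klrg2 (−0.64). For Zscan12 the highest were lower, with Snora2b (0.529), the translation factor gene Eif3e (0.505), Gm6238 (0.499), Npm1 (0.482) and Fam133b (0.464), and the lowest were Rnf130 (−0.447), Pld3 (−0.437) and Tmem233 (−0.434). The Zscan12 list also changed when N1202 was left out. The highest were then Ssb (0.56), Mir1839 (0.547), Tdp2 (0.547), Krr1 (0.527) and Gemin6 (0.525). The lowest were Thbd (−0.474), Iqsec2 (−0.469) and Ablim1 (−0.468). The second Zfp322a set was most like Sox5os3 (0.539), G6bos (0.515), 1810037I17Rik (0.486), Mir181c (0.481) and Pate1 (0.476), and least like Leng9 (−0.47), Mir466g (−0.444) and Cox20 (−0.439).

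Genes of chromosome 13 were unequally spread over these neighbours in level. Of the 50 named probe sets with the highest r, 14 (28%) lay on chromosome 13 for the main Zfp322a set, 7 (14%) for Zkscan3, 5 (10%) for Zscan12, 3 (6%) for the second Zfp322a set and 0 for Pgbd1, where 3.8% of all those tested do. Without N1202 the counts were 14, 10, 5, 3 and 0. They were not the nearest genes alone. In the RefSeq order of the 775 genes tested on the chromosome, those alike to the main Zfp322a set lay from 5 to 654 genes away with a median of 262.5, and 2 of the 14, Gm11335 and Tdp2, lay within 50 genes. For Zkscan3 without N1202, Zfp934, Zfp808, Gm5141, Gm20599, 6720489N17Rik and 2810408B13Rik (r from 0.606 to 0.711) lay in 1 stretch of the order, between positions 433 and 444, while Zkscan3 stands at 76. These 6 were chosen after their values were seen. Of the 14 genes of the main Zfp322a set over all tumors, Gm19792, Zfp934, 6720489N17Rik and Gm5141 (r from 0.59 to 0.608) lay in the same stretch. Spin1, also among the 14, has probe sets that differed, with r of 0.594, 0.415 and 0.0198 without N1202. For Zscan12 over all tumors, 4 of the 5 were within 50 genes, namely the histone gene H4c9 (0.436), Yae1d1 (0.429), Zfp322a itself (0.411) and Gm11335 (0.4). Without N1202 it was 3 of the 5, and Yae1d1 was no longer among them. The probe sets of Yae1d1 also differed, with r of 0.446 and 0.294 with Zscan12 without N1202. Whether the higher of these measures Yae1d1 transcript was not tested. Tdp2 (0.547), 64 genes away, was then the highest, and Cetn3 (0.455) lay 496 genes away.

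Genes close in position had correlations of both signs. Over the probe sets of genes within 10 places, the median r without N1202 was −0.0348 for Zscan12, −0.0095 for Zkscan3, −0.0388 for Pgbd1 and −0.018 for the main Zfp322a set. Single values ran from −0.247 to 0.329, −0.273 to 0.463, −0.333 to 0.463 and −0.294 to 0.642 in the same order. Within 50 places it was 0.0582, −0.01, −0.00486 and 0.0433 in the same order, with medians over other chromosomes of −0.00295, −0.031, −0.0205 and −0.0233. The second Zfp322a set had higher medians, 0.165 within 10 places and 0.104 within 50, against 0.0433 over other chromosomes.

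**Figure D4:**
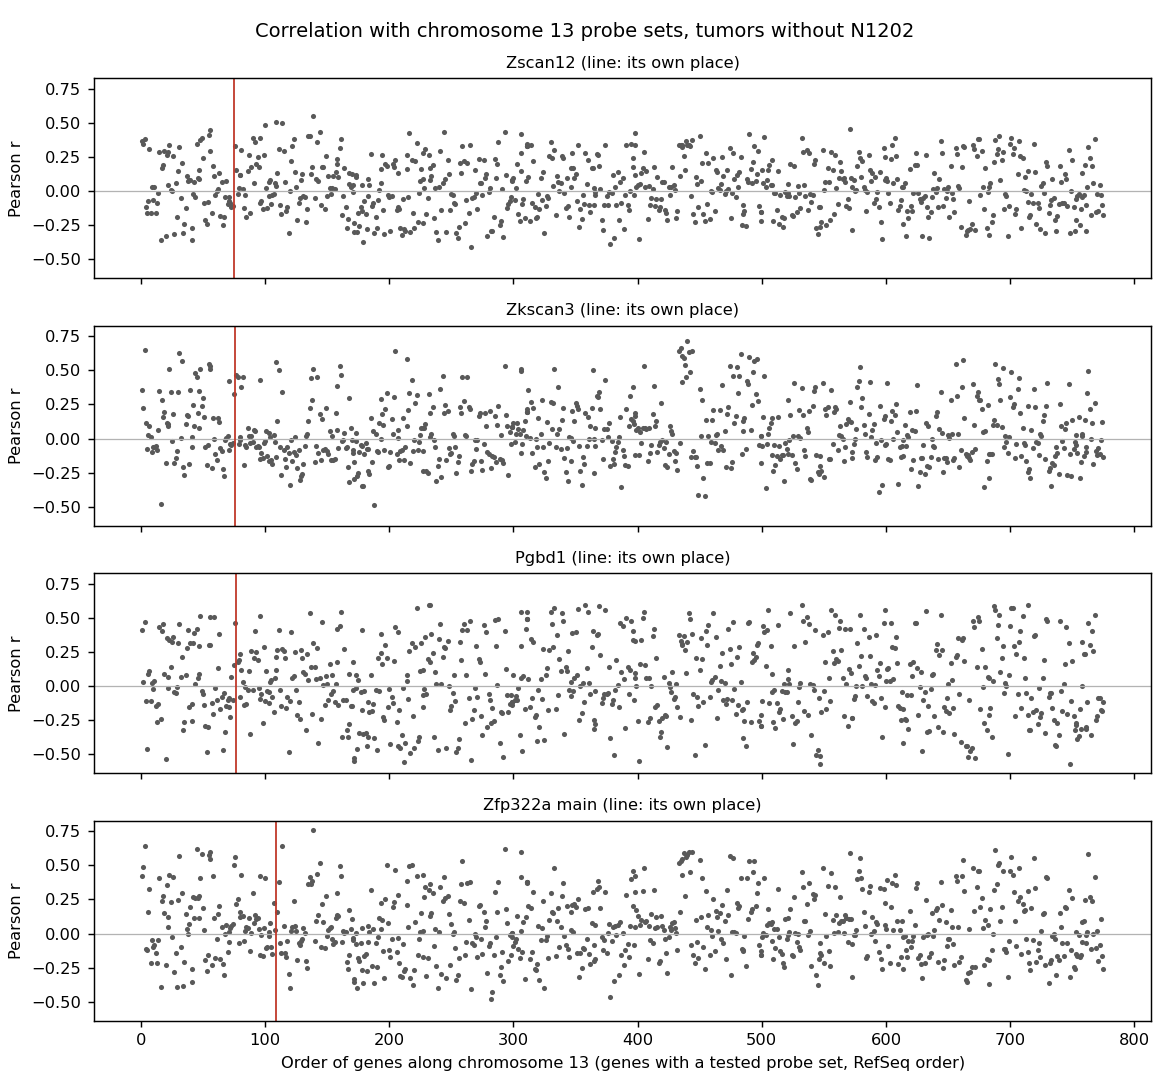
Pearson r (all tumors but N1202) of each probe set on chromosome 13 with 4 member probe sets, along the order of genes on the chromosome, with the place of the member as a red line. High values are scattered along the chromosome, and a group between positions 433 and 444 reaches high values for Zkscan3 and the main Zfp322a set.

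Other zinc finger and SCAN genes of the cluster gave 7 probe sets for 5 genes, of which 1 rose with burden and none fell (20.3% and 16.4% of all probe sets). That 1 was Zfp184, whose probe set in the plus strand block had r = 0.332 (limma adjusted p = 0.000987), while its other probe set had r = 0.0178 (adjusted p = 0.901). Zscan26 (r = −0.13, adjusted p = 0.257), Zkscan8 (−0.175, 0.111), Zfp389 (0.157, 0.162) and both Zkscan4 probe sets (0.0198 and 0.16, adjusted p = 0.889 and 0.148) did not pass. None was called with distant metastasis or lymph node burden. Zkscan3 correlated with Zscan26 (r = 0.471), the called Zfp184 set (0.44), Zkscan8 (0.328) and Zfp389 (0.287), and had 0.0442 and 0.0375 with the Zkscan4 sets (−0.00829 and 0.0145 without N1202). Pgbd1 had r = 0.524 with the same Zfp184 set and 0.000467 with Zkscan8 (0.0331 without N1202). The main Zfp322a set had 0.436 with that Zfp184 set and 0.408 with Zfp389. With the other Zfp184 set r was −0.0462 for Zkscan3, −0.0487 for Pgbd1 and −0.126 for the main Zfp322a set.

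Of 12 probe sets for 11 other genes of the region, 2 rose with burden (Abt1, a basal transcription activator, with r = 0.407, and a probe set of Trim27 with r = 0.305, whose other set had −0.00435) and 1 fell (Hfe, the regulator of iron uptake, r = −0.3). The histone genes of the cluster are listed under newer symbols and were found by gene ID. That search gave 19 probe sets, of which 12 rose with burden and none fell, among them H2ac10 (r = 0.431) and H2bc12 (r = 0.425). The median r of the 19 with burden was 0.224. H2af-ps2 (r = 0.237), counted among the 12, lies outside the cluster, at position 308 of the gene order. Of all probe sets 20.3% rose and 16.4% fell. Pgbd1 had r = 0.337 with H2bc12 and 0.288 with H2ac10, and Zkscan3 0.129 and 0.0231. Without N1202 both signs turned for Zkscan3 (−0.0293 and −0.0822).

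Among SCAN genes elsewhere in the genome, 9 of 25 rose with burden and 2 fell, with a median r of 0.151 against 0.0489 for all probe sets. The background for this list and the next ones was 20.3% of all probe sets rising and 16.4% falling. Zscan18 (r = 0.42) and Zkscan5 (0.359) rose, and Zkscan7 (−0.372) and Zscan29 (−0.352) fell. Of 6 genes of the KRAB corepressor machinery 5 rose, with Trim28, the corepressor that KRAB domains bind, at r = 0.397 and Cbx3, a heterochromatin protein, at 0.384. Of 8 transposase-derived genes 4 rose, with Tigd3 at r = 0.411 and Tigd5 at 0.305. Of 21 autophagy and lysosome genes, 1 rose (Atg16l1, r = 0.252) and 7 fell, with Lamp2, a lysosomal membrane protein, at −0.423 and Atg5 at −0.408. Of 4 genes described as ZNF322A targets in human or mouse cells, none rose and 2 fell, Ccnd1 (cyclin D1, r = −0.364) and Add1 (−0.253). None of these lists had a call with distant metastasis or lymph node burden by limma.

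The members differed in how they followed these lists and the markers of cell types over 126 tumors, given here as r with the mean of each list and with no test. For Pgbd1 r was 0.658 with the KRAB corepressors, 0.607 with mitosis genes, 0.586 with transposase-derived genes, 0.583 with SCAN genes elsewhere and 0.522 with neuroendocrine genes, and −0.544 with epithelial, −0.512 with prostate secretory, −0.502 with smooth muscle and −0.43 with T cell genes. Ranks gave lower values for several of these, with rho of 0.282 for the neuroendocrine and −0.444 for the epithelial list. Zkscan3 had r = 0.649 with the other zinc finger and SCAN genes of the cluster and 0.493 with the KRAB corepressors, −0.249 with epithelial and 0.104 with neuroendocrine genes. Without N1202 these were 0.685, 0.4, −0.196 and 0.0407, and rho with the neuroendocrine list was −0.0822. The main Zfp322a set had 0.562 with the cluster and −0.471 with autophagy and lysosome genes. Zkscan3 had −0.187 with the autophagy and lysosome list, and −0.136 without N1202. Zscan12 had r between −0.266 and 0.294 over the 17 lists, and between −0.338 and 0.382 without N1202. Without N1202 its r with the mitosis list was 0.346, against 0.161 with it.

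**Figure D5:**
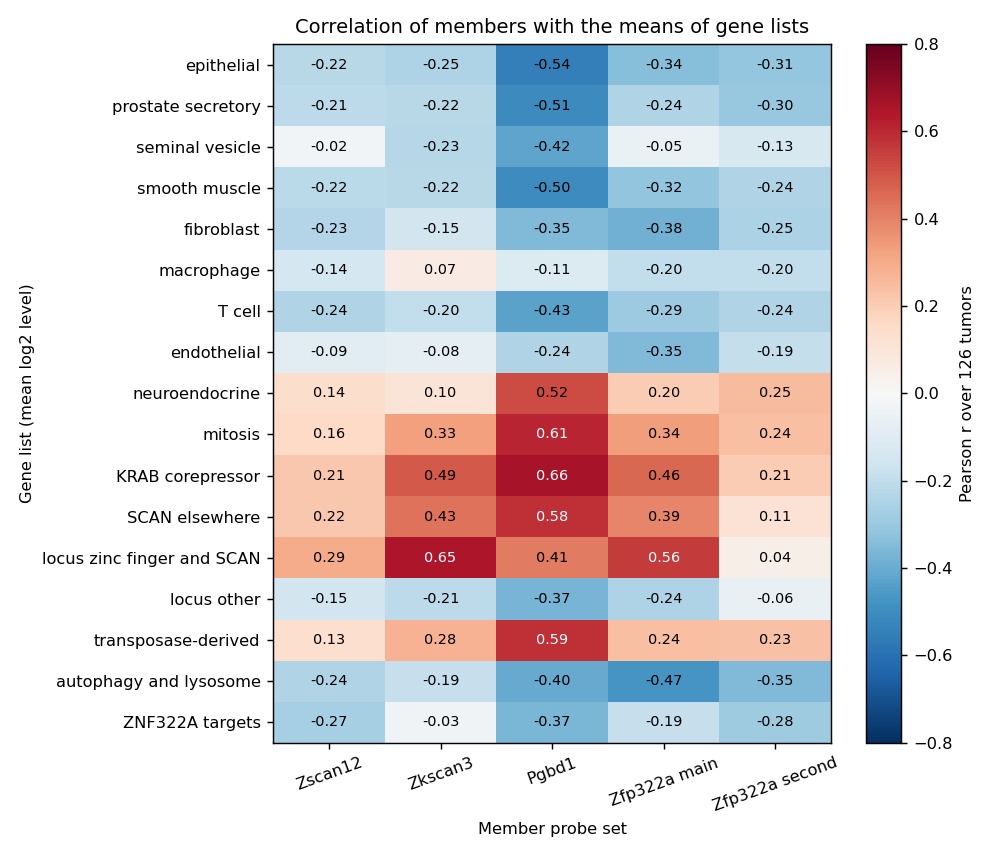
Pearson r over 126 tumors between each member probe set (columns) and the mean log2 level of 17 gene lists (rows), printed in each cell and coloured from blue (negative) to red (positive). Pgbd1 has the widest span, from −0.54 with epithelial genes to 0.66 with KRAB corepressors, and Zkscan3 reaches 0.65 with the other zinc finger and SCAN genes of the cluster.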

How the data were processed

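Expression was measured in 126 prostate tumors on Affymetrix Mouse Gene 2.0 ST arrays, 1 per F2 male. The authors deposited log2 values, made from scanned intensities in Partek by RMA, which corrects background, normalizes quantiles between arrays and summarizes probes into probe sets. Partek's version and the genome build are not given in the sources used here, and the number of arrays limits the precision. RNA extraction is named as TRIzol in the methods and as a Qiagen kit per the labels. Values were used as deposited. Names came from the platform annotation and gene order and promoters from RefSeq on GRCm38.p6.

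Probe sets with at least 1 symbol and a mean at or above the 10th percentile of all means (23507) entered linear models in limma 3.58.1 (R 4.3.3, moderated by eBayes), with primary tumor burden, distant metastasis, their interaction, lymph node metastasis burden or a member probe set as the regressor and Benjamini-Hochberg adjustment over all of them. The lymph node values came from a supplementary table and cover 41 of the mice. Pearson and Spearman permutation tests used 100000 resamples in Python 3.11.15 (numpy 2.4.6, pandas 2.3.3, scipy 1.17.1), and figures matplotlib 3.10.9. For a list outside the cluster, the probe set of highest mean stood for a gene. The models were first tested on simulated data.

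The members, the lists and the tests were chosen with earlier results of these data known. The genes named are all member probe sets, the 5 most and 3 least correlated named probe sets of each, all detected zinc finger and SCAN genes of the cluster and, of other lists, up to 2 in each direction with the smallest p for burden. Alternatives were other filters (none, 25th percentile), arrays centred or quantile normalized, tag range as a block, marker means, burden or metastasis as covariates, ranks, log2 traits, trimmed samples and the tests of the methods. The tag range interaction and the histone list by gene ID were added after the data were seen. Genotypes were not analysed here.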

Additional observations from a re-analysis of the deposited data

How the results depend on the processing

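Under quantile normalization r of Zscan12 with burden was 0.190 (adjusted p = 0.0794), and it was 0.197 once the 2 mice at the extremes of burden were left out. With the epithelial mean as a covariate 54 probe sets and 0 members were called with burden, and partial r was 0.123 for Zscan12, −0.0855 for Pgbd1, −0.0235 for the main and 0.164 for the second Zfp322a set. With the neuroendocrine mean 2565 probe sets and 0 members were called, with 0.184 for Zscan12, 0.0757 for Pgbd1 and 0.235 for the second Zfp322a set. Without tumors under 1 g these were 1937 and 0, with 0.196, 0.114 and 0.216. Without N1202 Pgbd1 had 0.203. On log2 burden 5 members were called, with r = 0.202 for Zkscan3 and 0.244 for the main Zfp322a set, and the share of all probe sets called there is not given. The cause of these changes was not tested.

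For Zscan12 the difference by distant metastasis was −0.00779 with the epithelial mean and −0.00791 with burden as a covariate, both near 0 as before. With lymph node burden, partial r of the second Zfp322a set was −0.0460 given the epithelial mean and −0.0294 given the neuroendocrine mean, and r of Zscan12 was −0.00345 in mice with lymph node metastasis alone. Of all probe sets, 1 was called with the 25th percentile filter and 1 with centred arrays, against 0. The second Zfp322a set did not pass the 25th percentile filter and has no value there. N1202 is not among the mice with a lymph node value here, so that leaving it out could not be run.

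Of the pairs that were not called, the sign turned for Zfp322a main and second with centred arrays (r = 0.00676) and with tag ranges as a block (0.0338), for Zscan12 and Pgbd1 (−0.0803), Zscan12 and the second Zfp322a set (−0.0475) and Pgbd1 and that set (−0.0595) with the epithelial mean, and for Zscan12 and the second set with burden as a covariate (−0.0433) and in ranks (−0.0255). No paired analysis was possible because each mouse gave 1 tumor and the labels give no shared replicate numbers. Lymph node values were at hand for 41 mice only, and the second Zfp322a set lies near the low end of the scale.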
